A study of Mus musculus with 8 samples.

Results

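The lysosomal surface is where a cell reads its supply of amino acids, and this account follows the transcripts of that machinery in macrophages without progranulin. The members were chosen by symbol from the deposited gene table, and all 38 symbols were found among its 56980 genes: the Rag GTPases, Ragulator, the folliculin complex, GATOR1 and GATOR2, the TSC complex and Rheb, mTORC1 and mTORC2 subunits, the Sestrins with Ddit4, and the MiT/TFE transcription factors. Bone-marrow-derived macrophages of C57/Bl6 mice were compared between 4 wild-type (WT) and 4 Grn knockout (GrnKO) cultures, all given DMSO as vehicle and cultured for 3 days before RNA extraction. The knockout was constitutive rather than limited to macrophages, and which stretch of Grn it removes is not stated in the labels. Each biological replicate was a pool of marrow from several mice, grown in M-CSF (50 ng/mL), frozen and later thawed, per the labels' protocols, so the spread between replicates is that between pools. Where 4 values follow each other below, they are in the order of replicates 1 to 4 of that genotype.

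As background, mTORC1 is a kinase complex that promotes growth when nutrients are present. It is brought to the lysosome by a pair of Rag GTPases, RagA or RagB bound to RagC or RagD, which the Ragulator complex anchors to the membrane. GATOR1 switches RagA and RagB off, GATOR2 counters GATOR1, and the Sestrins bind GATOR2. Folliculin, with its partner FNIP1 or FNIP2, acts on RagC and RagD, and Rheb, which the TSC complex holds in check, activates the kinase itself. Active mTORC1 keeps TFEB and TFE3 phosphorylated in the cytoplasm; when released they enter the nucleus and raise lysosomal genes, Rragd and Flcn being known targets as well. In macrophages this branch links lysosomal load and phagocytosis to gene expression. Progranulin, the product of Grn, is a secreted protein that is delivered to the lysosome and cut there.

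Libraries held 5828180 to 8768770 estimated counts of 3′ tags. Grn stood between 1436 and 2027 CPM (counts scaled to a library of 1000000 after TMM correction) in the WT libraries and between 12.96 and 14.4 CPM in the GrnKO libraries, a log2 fold change of -6.95 ± 0.15 (edgeR adjusted p = 4.1e-10), so all 8 libraries matched their labels. The 13 listed macrophage markers were all detected, with a summed level of 7326 to 12572 CPM in WT and 8094 to 9909 CPM in GrnKO libraries. Of these markers, 2 complement genes, C1qa (log2 fold change -1.41) and C1qb (-0.54), were called lower and none higher, and the groups did not overlap for 6 lower (Adgre1, Itgam, Fcgr1 and Cd14 besides) and 1 higher (Cd68); their part in the results below was not tested. The 7 lymphocyte markers summed to at most 1.53 CPM and the 5 stromal markers to at most 3.06 CPM. Of lists of other marrow cells, the neutrophil sum was 51.1 to 157 CPM in WT and 17.5 to 35.1 CPM in GrnKO libraries, the erythroid and megakaryocyte sum, nearly all Pf4, 368 to 523 and 247 to 285 CPM with Hba-a1 at 0 throughout, the dendritic cell sum 12.4 to 21.7 and 16.4 to 28.4 CPM, and the mast cell and basophil sum 0.755 to 2.41 and 6.39 to 7.32 CPM, with Cpa3, Fcer1a, Mcpt8 and Prss34 at 0 in all GrnKO libraries. WT replicates 1 and 2 held the most genes lying far from every other library. Among 9830 genes averaging at least 5 CPM, 15 lay, in WT replicate 2, at least 3 times above every other library (Lamtor2 is 1 of them). There were 4 such genes in WT replicate 1 and 0 in the other 6 libraries. Genes at least 3 times below every other library numbered 12, 7, 0 and 4 across the WT libraries, and 0, 0, 2 and 2 across the GrnKO libraries. WT replicate 1 was the lowest WT library for 20 of the 37 tested members (54.1%), against 29.2% of all 12186 genes tested, and WT replicate 4 was the highest for 17 (45.9%, against 31.1%). In bulk RNA, fewer cells of a kind and less RNA per cell cannot be told apart.

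Of the genes of the nutrient-sensing machinery, 2 were called different between genotypes, in opposite directions. Rragd, which encodes RagD, rose about 2.02-fold in GrnKO macrophages, and Sesn3, which encodes Sestrin 3, fell. Of 38 members, 37 passed the filter on low counts and 35 of these were not called. Calls are an adjusted p under 0.05 from edgeR's quasi-likelihood test with Benjamini-Hochberg adjustment over all genes tested. The called share of the tested members, 5.41%, stood beside 4.25% of all genes (340 or 2.79% higher and 178 or 1.46% lower in GrnKO; 281 in each direction with no scaling factors), so the number of members called was close to the background. The members' median log2 fold change, GrnKO over WT, was 0.03, against -0.03 over all genes tested. The groups did not overlap for 3 tested members higher in GrnKO (Rragc, Rragd and Lamtor3) and 1 lower (Sesn3), where 12.0% of all genes were separated, 6.88% higher and 5.10% lower. An unadjusted p under 0.05 in the edgeR test was reached by 6 of the 37 tested members and by 17.6% of all genes, so the members did not exceed the background. For 30 of the 35 members not called, the 95% interval of the fold change lay within a 2-fold change in either direction, and for 23 it lay within 1.5-fold; the 5 with wider intervals were Lamtor2, Akt1s1, Deptor, Depdc5 and Ddit4.

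**Figure D1:**
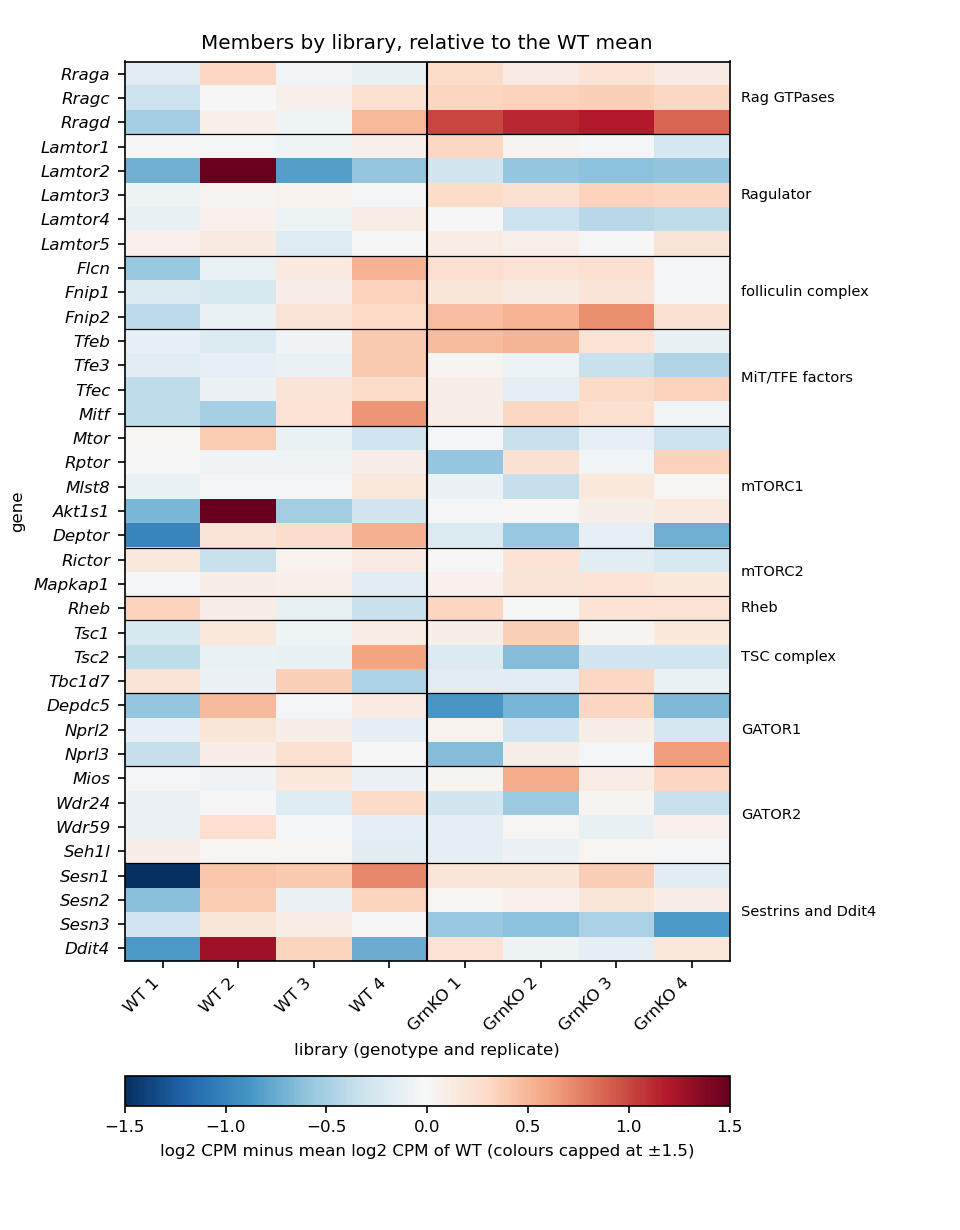
Heat map of the 37 tested members (rows, grouped by complex) in the 8 libraries (columns); colour is log2 CPM minus the mean log2 CPM of the WT libraries, capped at 1.5 in either direction. Rragd is red in all GrnKO libraries and Sesn3 blue, while Lamtor2 and Akt1s1 are dark red in WT replicate 2 and Sesn1 dark blue in WT replicate 1.

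**Figure D2:**
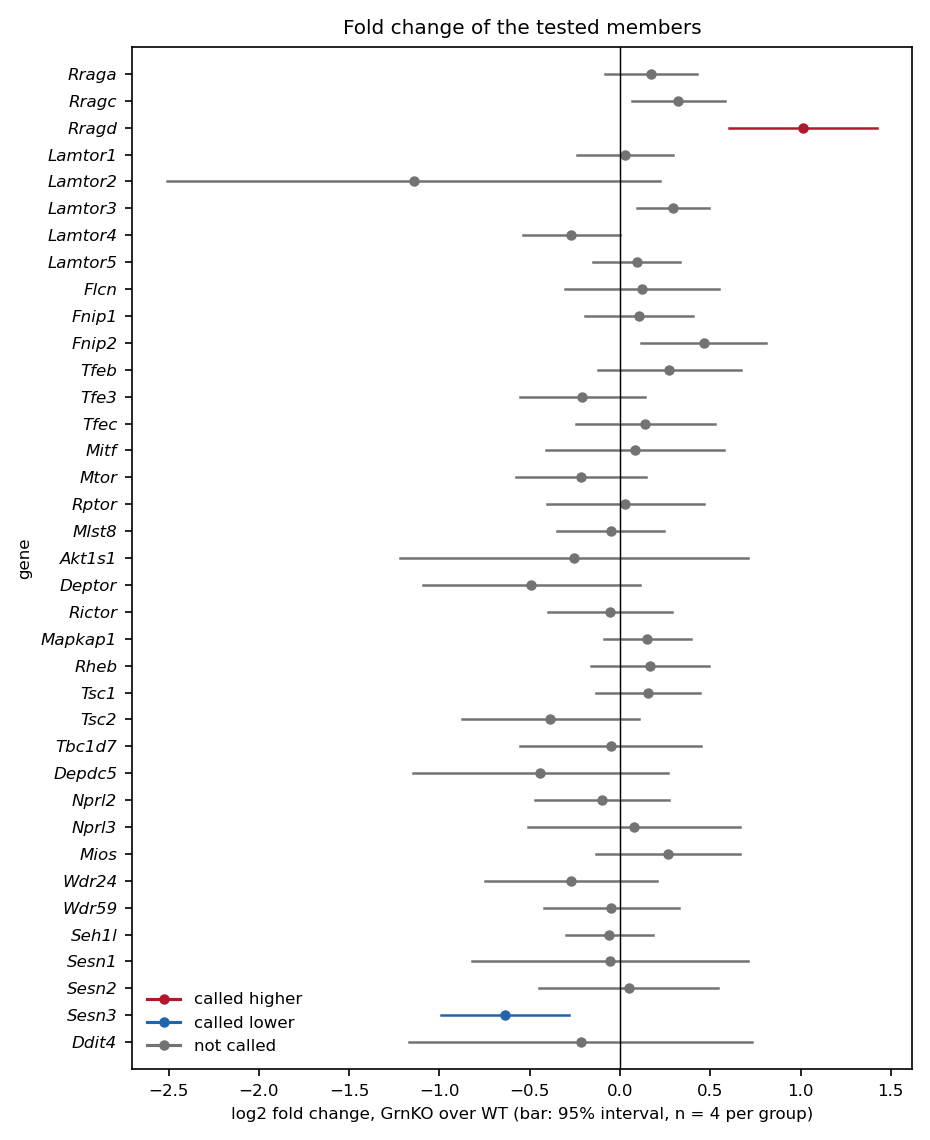
Fold change of each tested member on the log2 scale (x axis, GrnKO over WT) with its 95% interval (bars, n = 4 per group). Rragd (1.01) is the member called higher and Sesn3 (-0.64) the member called lower; the widest interval is that of Lamtor2.

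Of the Rag GTPase genes, Rragd was called higher and the other 2 tested were not called. Rragd measured 23.9, 36.0, 32.6 and 48.1 CPM across the WT libraries, against 68.3, 74.9, 77.6 and 62.6 CPM across the GrnKO libraries. Every GrnKO library was above every WT library, the nearest being WT replicate 4 and GrnKO replicate 4. The mean rose from 35.1 ± 10.03 to 70.9 ± 6.77 CPM (SD, n = 4 per group), a log2 fold change of 1.01 ± 0.19 (SE; edgeR adjusted p = 0.010). These values rest on 218 to 509 counts per library. The call was made in all 10 alternatives with another scaling, filter, tool or set of libraries and without each library in turn, with an adjusted p of at most 0.046.

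Rragc, which encodes the alternative partner RagC, was far more abundant than Rragd and differed less. It measured 254, 317, 333 and 374 CPM across the WT libraries, against 396, 403, 406 and 393 CPM across the GrnKO libraries. The groups did not overlap and the GrnKO libraries lay close together, while the WT libraries were spread. The log2 fold change of 0.32 ± 0.12 was not called (edgeR adjusted p = 0.17; unadjusted p = 0.019; 95% interval 0.06 to 0.58). A 3′ library takes 1 tag per transcript, so the counts of 2 genes can be set side by side without dividing by length. Rragd made up 8.60, 10.2, 8.92 and 11.4% of the Rragc plus Rragd counts across the WT libraries, against 14.7, 15.7, 16.1 and 13.7% across the GrnKO libraries. The share was 5.27 percentage points higher in GrnKO, with no overlap between groups. The p of 0.0286 in a two-sided exact permutation test over 70 assignments is the smallest that 4 against 4 libraries can give, and it was 0.0571 adjusted over the 4 shares tested.

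Of the other pair, Rraga was the most abundant member, ranging from 343 to 474 CPM over WT and from 417 to 464 CPM over GrnKO libraries, with overlap and a log2 fold change of 0.17 ± 0.12 (edgeR adjusted p = 0.49). It encodes RagA, the partner of RagC or RagD. Rragb, its close relative on the X chromosome, had 1 to 11 counts per library and was the member too low to be tested. Its share of the Rraga plus Rragb counts was at most 0.350% in any library, and the difference of -0.14 percentage points did not pass the exact permutation test (p = 0.0571, and 0.0762 adjusted over the 4 shares). Whether reads were divided between these 2 related genes was not examined, so Rragb's low level is uncertain.

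**Figure D3:**
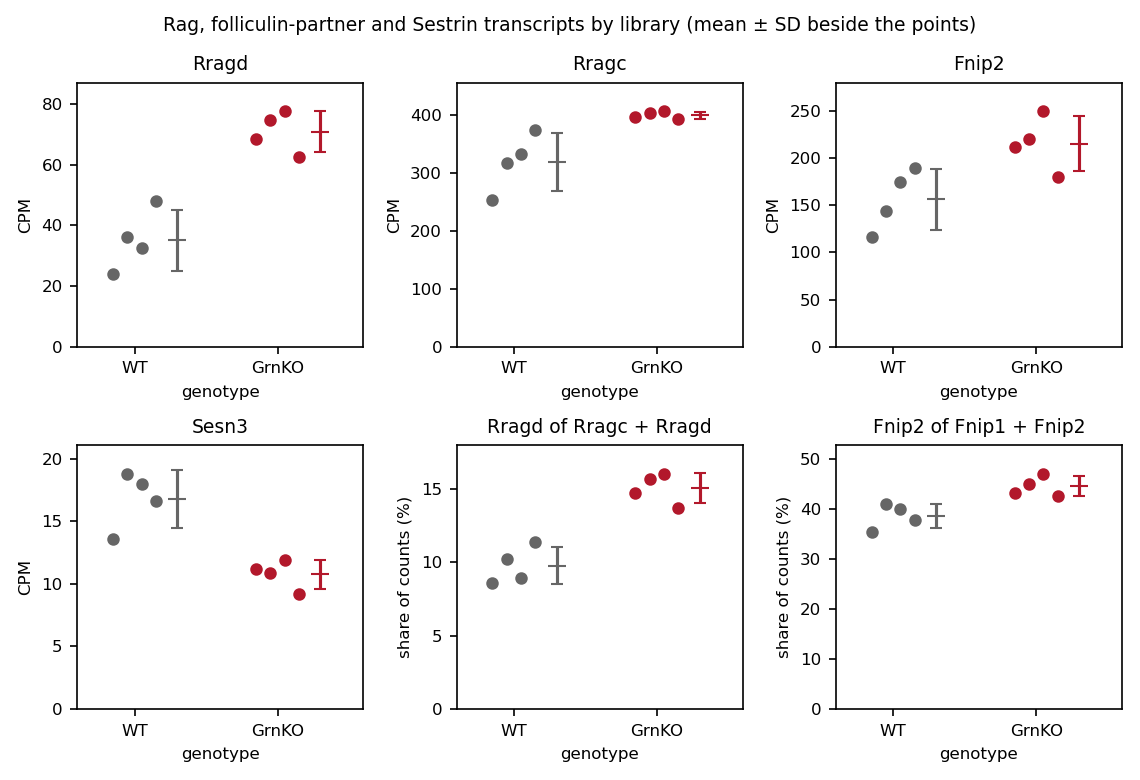
Levels in CPM of Rragd, Rragc, Fnip2 and Sesn3, and the shares (%) of Rragd and Fnip2 within their pairs, in WT (grey) and GrnKO (red) libraries; each point is 1 library and the bar beside the points is the mean ± SD (n = 4). The groups do not overlap for Rragd, Rragc, Sesn3 and both shares, and they overlap for Fnip2.

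The promoters of these paired genes are shown because MiT/TFE factors bind an E-box, CACGTG. The sequences are from RefSeq on GRCm38.p6, which is not the GRCm39 build of the deposited counts, and give the strand of the gene, 5′ to 3′, with each CACGTG in capitals. The first 2 are the 150 bases before the start of Rragd (chr4:32982848-32982997, plus strand) and of Rragc (chr4:123917283-123917432, plus strand).
Rragd: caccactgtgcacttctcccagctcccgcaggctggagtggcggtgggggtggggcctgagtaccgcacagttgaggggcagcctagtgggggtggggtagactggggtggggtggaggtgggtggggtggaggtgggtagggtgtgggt
Rragc: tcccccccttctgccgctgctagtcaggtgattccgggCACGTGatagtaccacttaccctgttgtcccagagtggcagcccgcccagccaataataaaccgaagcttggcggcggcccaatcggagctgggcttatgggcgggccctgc
The same hexamer lies in the stretches around it in Lamtor1 (chr7:101905757-101905786, plus strand), Lamtor4 (chr5:138255350-138255395, plus strand), Fnip1 (chr11:54438092-54438121, plus strand) and Rheb (chr5:24842440-24842469, minus strand).
Lamtor1: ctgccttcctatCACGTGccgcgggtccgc
Lamtor4: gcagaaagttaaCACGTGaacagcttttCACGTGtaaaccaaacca
Fnip1: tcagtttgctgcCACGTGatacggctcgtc
Rheb: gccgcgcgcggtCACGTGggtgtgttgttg

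Promoter windows of 300 bases, from 250 before to 50 after the start, were found for 34 of the 38 members, as 41 windows. CACGTG, which reads the same on both strands, occurred in 7 of these (Rragc, Rragb, Lamtor1, Lamtor4, Fnip1, Rheb and Tbc1d7) and in 7.15% of all 32851 windows. The longer TCACGTG, which contains it and was searched on both strands, occurred in 6 of the 41 and in 3.77% of all windows. TCATGTG occurred in 2 (Lamtor1 and Lamtor2), and in 3.77% of all windows. Rragd, the member that rose, held none of these letters in its window, and none of the 6 tested members with CACGTG was called. As only 4.25% of all genes tested were called, 6 members are too few for that count to bear on the motif. Sites outside these 300 bases were not searched. Whether MiT/TFE factors bind or drive any of these genes was not tested.

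Ragulator is the scaffold of 5 small proteins that holds the Rag pair on the lysosome, and none of its genes was called. Lamtor3 measured 175, 190, 192 and 182 CPM across the WT libraries, against 224, 216, 235 and 230 CPM across the GrnKO libraries. The groups did not overlap, and the log2 fold change of 0.29 ± 0.09 missed the threshold (edgeR adjusted p = 0.11; unadjusted p = 0.0078), while DESeq2 called it (adjusted p = 0.015). A pseudogene, Lamtor3-ps, had 0 counts in every library. Lamtor4 had a difference of opposite sign, with 98.8, 112, 101 and 115 CPM across the WT libraries, against 106, 85.4, 79.9 and 81.7 CPM across the GrnKO libraries. Here GrnKO replicate 1 lay within the WT range, and the log2 fold change of -0.27 ± 0.12 was not called (edgeR adjusted p = 0.28; unadjusted p = 0.048). Lamtor1, which attaches the complex to the membrane through its lipid anchor, ranged from 233 to 256 CPM in WT and from 203 to 301 CPM in GrnKO libraries. Lamtor5 ranged from 69.6 to 87.2 CPM and from 80.1 to 90.8 CPM. Both overlapped between groups.

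Lamtor2 was set by a single library. It measured 29.9, 215, 27.8 and 32.8 CPM across the WT libraries, against 40.8, 33.0, 32.03 and 32.6 CPM across the GrnKO libraries. The 1784 counts in WT replicate 2 lay far above the 7 other libraries, which had 186 to 274 counts. With it the log2 fold change was -1.14 ± 0.62 (edgeR adjusted p = 0.37), and without it 0.20 (adjusted p = 0.52), so the sign of the difference depended on that library. Akt1s1, which encodes the mTORC1 inhibitor PRAS40, had the same kind of excess, with 3.94, 17.96, 4.41 and 5.17 CPM across the WT libraries, against 6.25, 6.39, 6.71 and 7.01 CPM across the GrnKO libraries. Apart from WT replicate 2, every GrnKO library was above every WT library. Its log2 fold change turned from -0.26 (edgeR adjusted p = 0.82) to 0.55 (adjusted p = 0.21) without WT replicate 2.

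The folliculin complex acts on RagC and RagD and so lets mTORC1 reach TFEB and TFE3. Of its genes, Fnip2 had the largest log2 fold change and was not called. It measured 117, 144, 175 and 189 CPM across the WT libraries, against 211, 220, 250 and 180 CPM across the GrnKO libraries. GrnKO replicate 4 lay below WT replicate 4, so the groups overlapped. The log2 fold change was 0.46 ± 0.16 (edgeR adjusted p = 0.14; unadjusted p = 0.013), and it was called when every gene with a count was tested (adjusted p = 0.032). Fnip1, the more abundant partner, ranged from 207 to 310 CPM in WT and from 241 to 280 CPM in GrnKO libraries (log2 fold change 0.11 ± 0.14, edgeR adjusted p = 0.75).

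Within the pair, Fnip2 made up 35.5, 41.0, 40.0 and 37.9% of counts across the WT libraries, against 43.3, 45.05, 47.1 and 42.7% across the GrnKO libraries. The groups did not overlap, with a difference of 5.95 percentage points and the smallest p these libraries can give (two-sided exact permutation test, p = 0.0286, and 0.0571 adjusted over the 4 shares). Without GrnKO replicate 3 that p was 0.0571. Annotation of GRCm38 places the gene Gm17359 on the opposite strand at the 3′ end of Fnip2, and the sources used here do not say whether strand entered the counting. Flcn, folliculin itself, measured 42.5, 58.8, 69.4 and 90.3 CPM across the WT libraries, against 74.7, 73.0, 74.4 and 61.5 CPM across the GrnKO libraries. The GrnKO libraries lay inside the WT range, and the log2 fold change was 0.12 ± 0.20 (edgeR adjusted p = 0.81).

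The 4 MiT/TFE factors, basic helix-loop-helix proteins that bind as dimers, were all detected and none was called. Mitf and Tfe3 were the abundant ones, at 129 ± 49.7 and 113 ± 22.4 CPM in WT, with Tfeb at 22.8 ± 4.53 and Tfec, a member found mostly in macrophages, at 18.5 ± 3.65 CPM (SD, n = 4). Mitf and Tfe3 overlapped in their ranges, as did Tfeb and Tfec, so neither order is beyond the spread. Mitf measured 93.3, 86.6, 141 and 194 CPM across the WT libraries, against 131, 152, 144 and 118 CPM across the GrnKO libraries. The WT libraries enclosed all GrnKO libraries (log2 fold change 0.08 ± 0.23, edgeR adjusted p = 0.90).

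Tfeb, the best known regulator of lysosomal genes, measured 20.6, 19.4, 21.6 and 29.4 CPM across the WT libraries, against 31.3, 31.95, 26.1 and 20.8 CPM across the GrnKO libraries. The groups overlapped through WT replicate 4 and GrnKO replicate 4, and the log2 fold change of 0.27 ± 0.18 was not called (edgeR adjusted p = 0.48; 95% interval -0.12 to 0.67). Tfe3 stood at 98.8, 102, 104 and 146 CPM in WT and 114, 105, 88.5 and 81.7 CPM in GrnKO replicates 1 to 4 (-0.21 ± 0.16, adjusted p = 0.54), with WT replicate 4 alone above the rest. Tfec ranged from 14.0 to 22.1 CPM in WT and from 16.5 to 23.1 CPM in GrnKO libraries. Its share of the 4 factors' counts was 6.66 ± 0.91% in WT and 7.33 ± 1.75% in GrnKO (two-sided exact permutation test, p = 0.514). These are transcript levels, and the phosphorylation and location of the proteins, by which mTORC1 controls them, were not measured.

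The kinase complexes themselves showed no called difference. Mtor, the kinase shared by mTORC1 and mTORC2, ranged from 19.1 to 30.5 CPM in WT and from 18.6 to 23.2 CPM in GrnKO libraries (log2 fold change -0.21 ± 0.16, edgeR adjusted p = 0.55). The scaffold Rptor (0.03 ± 0.20) and the shared subunit Mlst8 (-0.05 ± 0.13) lay closer to 0, as did the mTORC2 subunits Rictor (-0.06 ± 0.16) and Mapkap1 (0.15 ± 0.11). All 4 of these overlapped between groups.

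Deptor, which encodes an inhibitor bound to the kinase, depended on WT replicate 1. It measured 17.4, 39.7, 41.4 and 50.2 CPM across the WT libraries, against 29.8, 23.3, 31.9 and 20.8 CPM across the GrnKO libraries. The other WT libraries all lay above the GrnKO libraries and WT replicate 1 below them. The log2 fold change was -0.49 ± 0.27 with all libraries (edgeR adjusted p = 0.39) and -0.73 without WT replicate 1, where it was called (adjusted p = 0.022).

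Rheb and its inhibitor, the TSC complex, also went uncalled. Rheb, the small GTPase that switches mTORC1 on, ranged from 73.3 to 118 CPM in WT and from 92.7 to 116 CPM in GrnKO libraries (log2 fold change 0.17 ± 0.15, edgeR adjusted p = 0.62). Tsc2, the subunit that acts on Rheb, had 8.54, 10.4, 10.3 and 16.7 CPM across the WT libraries, against 9.68, 7.10, 9.15 and 9.05 CPM across the GrnKO libraries. WT replicate 4 was the highest and the other libraries overlapped (-0.39 ± 0.22, edgeR adjusted p = 0.41). Tsc1, the stabilising partner, and Tbc1d7, the small remaining subunit, had log2 fold changes of 0.15 ± 0.13 and -0.05 ± 0.23. Pkd1 lies on the opposite strand at the 3′ end of Tsc2.

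Apart from Seh1l, the GATOR genes had at most 100 counts in any library, which limits their precision. Of GATOR1, Depdc5 had 17 to 57 counts per library, Nprl2 49 to 100 and Nprl3 25 to 71, with log2 fold changes of -0.44 ± 0.32, -0.10 ± 0.17 and 0.08 ± 0.27. Of GATOR2, a ring built of propeller-shaped proteins, Mios (0.27 ± 0.18), Wdr24 (-0.27 ± 0.22), Wdr59 (-0.05 ± 0.17) and Seh1l (-0.06 ± 0.11) spanned both directions. None of the 7 was called and the groups overlapped for each, with edgeR adjusted p from 0.49 to 0.92. Seh1l, which also belongs to the nuclear pore, was the most abundant of them, with 38.7 to 46.1 CPM in WT and 39.01 to 44.1 CPM in GrnKO libraries.

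The Sestrins are stress-induced proteins that restrain mTORC1 through GATOR2, Sestrin 2 being a leucine sensor. Sesn3 measured 13.6, 18.8, 18.0 and 16.6 CPM across the WT libraries, against 11.2, 10.8, 11.9 and 9.17 CPM across the GrnKO libraries. Every GrnKO library was below every WT library, from 61 to 156 counts per library. The mean went from 16.7 ± 2.30 to 10.8 ± 1.15 CPM (SD, n = 4 per group), a log2 fold change of -0.64 ± 0.16. The edgeR adjusted p of 0.0495 was just inside the threshold. The call was made without WT replicate 1 (adjusted p = 0.015) but was lost without any 1 of the other 7 libraries, where the adjusted p rose to as much as 0.15. DESeq2 made it (0.017) but limma-voom did not (0.061).

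Sesn1, the most abundant Sestrin, was decided by WT replicate 1. It measured 48.2, 185, 181 and 229 CPM across the WT libraries, against 157, 157, 180 and 124 CPM across the GrnKO libraries. WT replicate 1 lay below every other library, and the 3 others of its group lay above all GrnKO libraries. The log2 fold change was -0.06 ± 0.35 with all libraries (edgeR adjusted p = 0.96) and -0.36 without WT replicate 1 (adjusted p = 0.15). Sesn2 ranged from 5.36 to 10.8 CPM in WT and from 8.49 to 9.46 CPM in GrnKO libraries (0.05 ± 0.23, adjusted p = 0.94). Ddit4, a stress-induced inhibitor that acts through the TSC complex, had 1.75, 7.72, 4.03 and 1.91 CPM in WT replicates 1 to 4 and 2.90 to 3.72 CPM in GrnKO libraries. On both genes the WT libraries spread to either side of the GrnKO libraries.

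**Figure D4:**
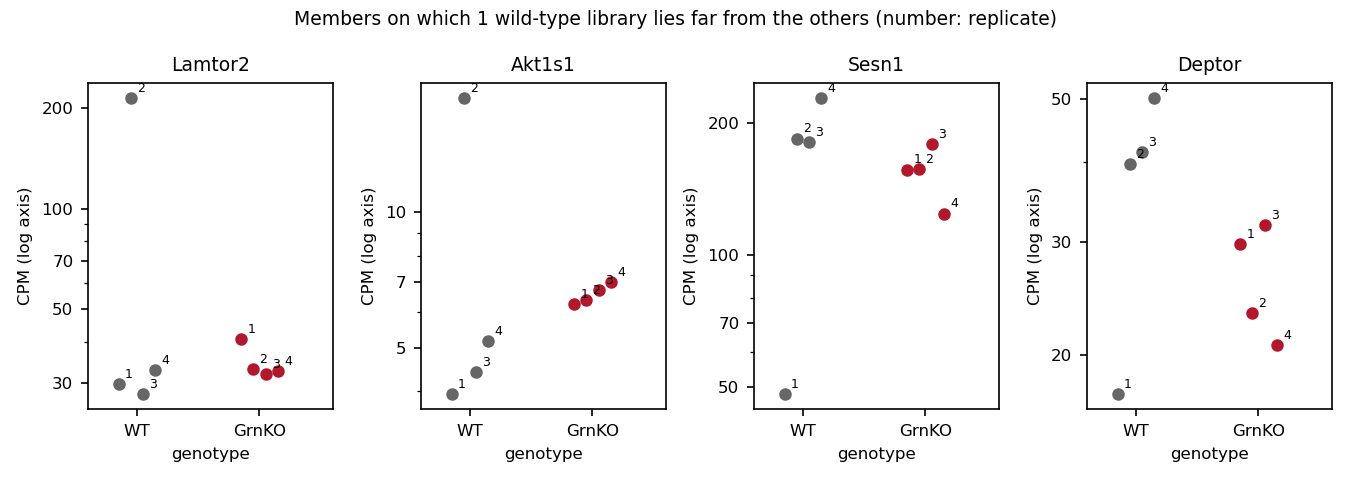
Levels in CPM (log axes) of Lamtor2, Akt1s1, Sesn1 and Deptor in each WT (grey) and GrnKO (red) library, numbered by replicate. WT replicate 2 lies above all others on Lamtor2 (215 CPM) and Akt1s1 (17.96 CPM), and WT replicate 1 below all others on Sesn1 (48.2 CPM) and Deptor (17.4 CPM).

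Spread among the WT libraries was wider than among the GrnKO libraries for most members. The coefficient of variation was larger in WT for 28 of 37 tested members (75.7%), against 69.9% of all genes tested, so this was near the background. Its median over the members was 19.5% in WT and 12.3% in GrnKO libraries. By level, 10 members had a WT mean of 100 CPM or more, 18 had 10 to 100 CPM, 9 had 1 to 10 CPM and 1, Rragb, was below 1 CPM.

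Among other genes of the same pathway, calls depended on the setting. Of 50 other mTORC1 pathway genes found (amino acid transporters and sensors, KICSTOR, AMPK and AKT signalling, and mTORC1 substrates), 44 were tested and 0 were called by edgeR's quasi-likelihood test, with 5 at an unadjusted p under 0.05 (17.6% of all genes reached that). Limma-voom called 0, DESeq2 and the fit with no scaling factors each called 1, Ulk2, and the fit with every gene that had a count called Ulk2 and Pik3r1, all lower. The median log2 fold change was 0.00. Ulk2, an autophagy-initiating kinase, averaged 167 ± 36.8 CPM over WT and 110 ± 16.4 CPM over GrnKO libraries (-0.60 ± 0.18, edgeR adjusted p = 0.084). Sar1b, a small GTPase of vesicle budding that binds leucine, stood at 40.7 ± 3.51 and 51.2 ± 3.11 CPM (0.33 ± 0.11, adjusted p = 0.14). Without WT replicate 1, 4 of these genes were called, Ulk2, Pik3r1 and Eif4b lower and Pik3cb higher, named after their values were seen. Calls over all genes also rose in that fit, to 942 from 518 with all libraries, so these 4 do not set the pathway apart.

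Among known targets of the MiT/TFE factors, genes of the proton pump, lysosomal hydrolases and membrane proteins rose. Of 49 tested targets, 13 rose, 0 fell and 36 were not called, which is 26.5%, against 2.79% of all genes called higher. Their median log2 fold change was 0.33, against -0.03 over all genes. The list was chosen with results of these libraries known, and it holds genes of the same organelle, so the count describes these libraries and is no independent evidence. Those with the smallest p were the osteoclast-type proton pump subunit Atp6v0d2 (1.62 ± 0.12), the glycoprotein Gpnmb (1.49 ± 0.14), the chloride-proton exchanger Clcn7 (0.78 ± 0.11), the pump subunit Atp6v1c1 (0.60 ± 0.09), cathepsin K, Ctsk (1.93 ± 0.29), and cathepsin D, Ctsd (0.81 ± 0.12), with edgeR adjusted p of at most 0.0029. All 6 were called without any 1 library; the number of targets called was 8 when WT replicate 3 or either of GrnKO replicates 1 and 2 was left out, and 7 without GrnKO replicate 3. The autophagy genes Sqstm1 (0.04 ± 0.11) and Map1lc3b (0.01 ± 0.19) and the lysosomal calcium channel Mcoln1 (-0.27 ± 0.44), targets as well and named after their values were seen, were not called. Mcoln1 stood at 22.5 CPM in WT replicate 2 and at 5.17 to 9.17 CPM in the 7 other libraries.

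Targets and Rragd were set side by side in each library, as log2 CPM relative to the mean of the WT libraries. The median of the 49 targets was -0.20, 0.02, -0.00 and 0.17 across the WT libraries, against 0.40, 0.30, 0.33 and 0.25 across the GrnKO libraries. Rragd was at -0.51, 0.08, -0.06 and 0.50 in WT and at 1.00, 1.14, 1.19 and 0.88 in GrnKO libraries. On both the groups did not overlap. WT replicate 1 was the lowest and WT replicate 4 the highest WT library on both, as also for the median of all tested members, which was -0.17, 0.07, -0.02 and 0.11 across the WT libraries and 0.04, 0.04, 0.08 and -0.02 across the GrnKO libraries. Some osteoclast markers are among the genes that rose. The 9 listed summed to 135 to 159 CPM over WT and to 323 to 382 CPM over GrnKO libraries, but without Atp6v0d2 the sums overlapped, at 46.2 to 61.4 and 55.0 to 69.8 CPM. Of these markers, 2 of the 6 tested (Atp6v0d2 and Ctsk, both also listed as targets) rose. The groups did not overlap for 3 of the 6, all higher in GrnKO. Acp5, on both lists as well, was not called by edgeR with all libraries, while DESeq2 called it higher (1.6, adjusted p = 0.013). None of the 9 markers was at 0 in all libraries, and their part in the result was not tested. Of the 11 neutrophil markers, 4 were tested, 3 of these fell and none was at 0 in all libraries; their part in the fall of Sesn3 was not tested.

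**Figure D5:**
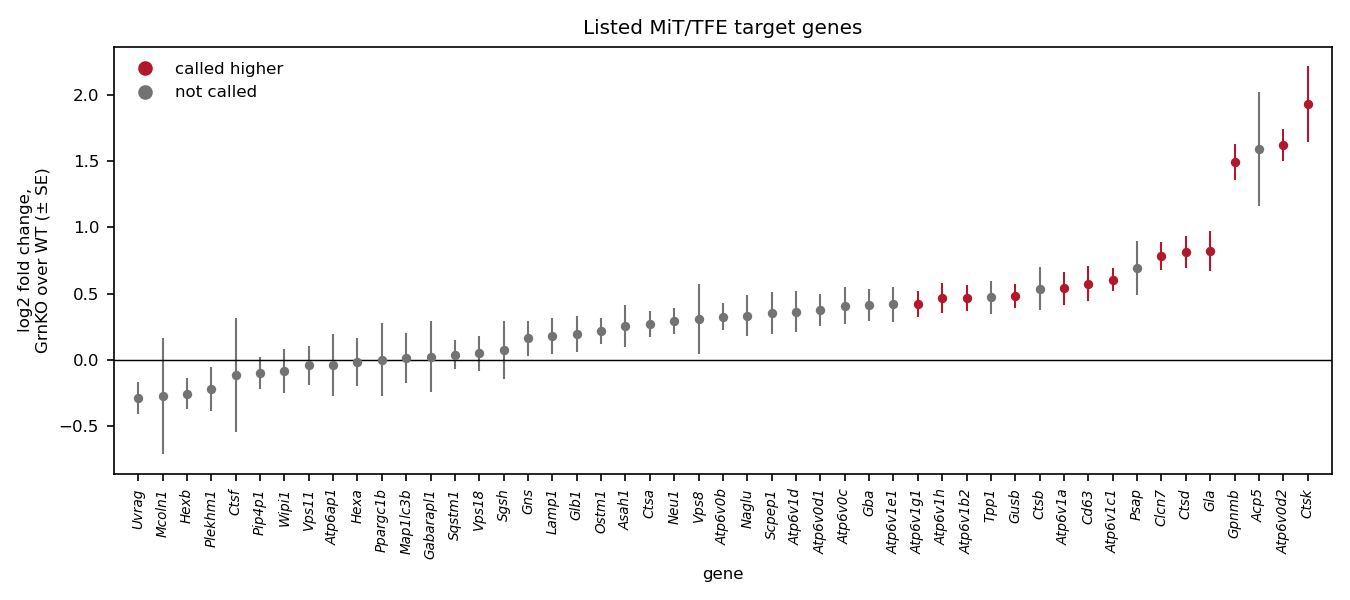
Log2 fold change, GrnKO over WT, of the 49 tested MiT/TFE target genes (points, with SE), ordered by size; red points were called higher and grey points were not called. The 13 called genes lie between 0.42 and 1.93, and none was called lower.

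Amino acid response genes under ATF4 were examined beside Sesn2 and Ddit4, which ATF4 also induces. Of 22 tested, 3 rose, 0 fell and 19 were not called (13.6% higher, against 2.79% of all genes), with a median log2 fold change of 0.16. The transcription factor Atf3 rose from 68.3 ± 3.94 to 125 ± 15.5 CPM (0.87 ± 0.12, edgeR adjusted p = 0.0015) and the stress cytokine Gdf15 from 88.5 ± 31.04 to 189 ± 20.1 CPM (1.09 ± 0.20, adjusted p = 0.011). The seryl-tRNA synthetase Sars rose from 123 ± 13.9 to 209 ± 58.97 CPM (0.77 ± 0.18, adjusted p = 0.036). The Sars call was lost without WT replicate 2 or 3 or GrnKO replicate 2, 3 or 4, with no scaling factors, with limma-trend, with the replicate block and without WT replicates 1 and 2 together, while Atf3 and Gdf15 were called in each of these. Sesn2 and Ddit4 were not called, and the amino acid synthesis gene Asns (0.28 ± 0.24), Atf4 itself (0.17 ± 0.18) and Trib3 (-0.12 ± 0.27), named after their values were seen, were not called. When WT replicates 1 and 2 were both left out, Atf4 (0.53, adjusted p = 0.021) and Asns (0.72, adjusted p = 0.046) were called higher. So were Atf5 (1.27, adjusted p = 0.00016), Phgdh (1.36, adjusted p = 0.0018) and Psph (0.975, adjusted p = 0.026) in that fit. It was added after the data were seen, and it called 1086 genes in all, against 518 with all libraries. Atf5 was also called without WT replicate 2 alone (1.04, adjusted p = 0.011). Phgdh was called without WT replicate 1 alone (1.14, adjusted p = 0.0082). The ATF4 composite element TGATGNAAT, searched on both strands, was in none of the members' promoter windows and in 0.965% of all windows.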

How the data were processed

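RNA from 8 macrophage cultures was sequenced as 3′ mRNA libraries with molecular identifiers, per the labels' protocols. The estimated counts per gene were deposited by the authors, made with Salmon on GRCm39 per the submitters' processing notes; no version or filter is given in the sources used here. The deposited log2 CPM values (every 0 at 1 common lowest value) served only as an alternative. Of the non-zero estimated counts, 36.4% were not whole (tolerance 1e-06), and all were rounded here.

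Groups came from the sample titles. Of 56980 genes, 12186 passed filterByExpr and were tested with edgeR 4.0.16 in R 4.3.3 (TMM factors, robust quasi-likelihood F test, Benjamini-Hochberg adjustment, threshold 0.05). Members were read from this fit. SE follow from the F statistic. CPM are for TMM-scaled library sizes. Shares within families were compared by exact permutation tests. Alternatives were median-of-ratios or no factors, 2 other filters, DESeq2 1.42.0, limma 3.58.1 (voom, and trend on the deposited log2 values), non-robust dispersions, a replicate block, each library left out, and other thresholds; leaving out WT replicates 1 and 2 together was added after the data were seen. The procedure was tested on simulated data.

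The members and lists were chosen with earlier results of these data known. All 38 members are accounted for; values per library are given for those called, with an unadjusted p under 0.05, or with calls that depend on a setting. From each other list up to 6 called genes by smallest p are named, or 2 where none was called. Some genes belong to more than 1 list. The gene table gave all symbols. Promoters came from RefSeq. Genes on the opposite strand overlap the 3′ ends of Lamtor1, Fnip2, Mlst8, Tsc2, Nprl3 and Seh1l, and a gene on the same strand that of Wdr24 (GENCODE names on GRCm38), so their counts may hold tags of the neighbour.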

Additional observations from a re-analysis of the deposited data

Results flagged for a closer look

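In 108 groups of 4 libraries (members, shares and some of the other named genes), 8 values lay apart from the other 3 of their group by Dixon's ratio. Chance passes this test in about 1 of 20 groups. The remaining named genes, Mcoln1 among them, were not examined in this way. In WT replicate 2, Lamtor2 stood at 215 CPM against 27.8 to 32.8 CPM in the other WT libraries, and Akt1s1 at 17.96 against 3.94 to 5.17 CPM. Tfe3 in WT replicate 4 stood at 146 against 98.8 to 104 CPM. Lamtor2 in GrnKO replicate 1 stood at 40.8 against 32.03 to 33.0 CPM. In GrnKO replicate 3, Tbc1d7 stood at 7.47 against 5.33 to 5.61 CPM and Depdc5 at 6.10 against 2.68 to 3.06 CPM. In GrnKO replicate 4, Flcn stood at 61.5 against 73.0 to 74.7 CPM and Ctsd at 4396 against 4996 to 5112 CPM.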

How the results depend on the processing

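Of the members' log2 fold changes, none that was called changed sign in any alternative run; at a threshold of 0.05 Rragd kept its call in all 18, and Sesn3 lost it in 13. Called members (2 in all, 1 higher and 1 lower) numbered 1 (0 lower) with median-of-ratios factors, with a mean CPM of 1 or more, with limma-voom, with non-robust dispersions and with the replicate block, 2 higher and 0 lower with every gene counted, 2 higher with DESeq2, 0 at an adjusted p under 0.01, and 3, 2 of them lower, when WT replicates 1 and 2 were both left out. Leaving out 1 library gave 1 to 3, with 0 to 2 lower. All genes called (518; 340 higher, 178 lower) numbered 918 (427 lower) with every gene counted, 865 (536 and 329) with DESeq2, 220 (168 and 52) with the replicate block, 1086 (589 and 497) without WT replicates 1 and 2, 209 (157 and 52) at 0.01 and 836 (512 and 324) at 0.1; with no scaling factors there were 281 in each direction. Leaving out 1 library gave 267 to 942 (193 to 530 higher, 73 to 412 lower), the highest without WT replicate 1. Other pathway genes called (0) numbered 1 lower with no scaling factors, with DESeq2 and at 0.1, 2 lower with every gene counted, and 2 (1 higher, 1 lower) without WT replicates 1 and 2; leaving out 1 library gave 0 to 4 (0 to 1 higher, 0 to 3 lower). Targets called higher (13) numbered 20 with DESeq2, 7 with the replicate block and 6 at 0.01; leaving out 1 library gave 7 to 17. ATF4 targets called (3) numbered 7 without WT replicates 1 and 2, and 1 at 0.01. With the replicate block, the differences in share of Rragd (5.27 points) and Fnip2 (5.95 points) had p = 0.125 by an exact sign-flip test, the smallest that 4 pairs can give; leaving out 1 library moved the Fnip2 difference from 4.93 to 6.75 points and the Rragb difference from -0.18 to -0.10 points. Deviations of same-numbered libraries correlated at -0.07, -0.14, 0.15 and -0.39 for replicates 1 to 4. The highest correlation between genotypes was 0.40, for WT replicate 1 with GrnKO replicate 4. Whether cultures shared handling was not tested, and the block rests on shared numbers alone. The causes of these changes were not tested. Depth limits Ddit4, Rragb, Tbc1d7, Sesn2 and the GATOR genes except Seh1l, which had at most 100 counts in any library.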
